A study of Saccharomyces cerevisiae with 95 samples.

Results

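The genes described here are the cell-cycle G2-M genes of budding yeast, Saccharomyces cerevisiae: the ORFs that the study lists under that heading of its module table and under no other heading. Of the 56 ORFs of that heading, 36 were kept, out of 6132 ORFs with values. The other 20 also stood in another module, 11 of them in the G1 module and 6 in the M-G1 module. The module was built from a large collection of expression data, and the methods do not say whether the arrays used here were part of it. The rule used no value of the comparisons below.

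Transcription of these genes peaks from G2 to mitosis. The forkhead factor Fkh2, bound together with Mcm1 and its coactivator Ndd1, drives the cluster, and the B-type cyclin Clb2, itself encoded by a member, feeds back on this complex. The products start mitosis, activate the anaphase-promoting complex, switch on the next wave of genes through Swi5, and build the division septum, while several others serve the plasma membrane and the growing bud.

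Expression was measured on 95 arrays of 2 colours carrying PCR products of ORFs, and every value is a normalized log2 ratio, so that a difference of 1 is a doubling. The chemostat arrays, 83 in all, set cells from continuous cultures (Cy5) against a batch culture in late log phase (Cy3). They form 10 courses, in each of which a culture at steady state was perturbed and followed. The 5 glucose-limited courses (BY4741, a haploid of mating type a) grew at 30 °C in medium with 0.02% glucose and received 6 mM DTT, heat shock (39 °C for 5 h), 0.4 M NaCl, 0.6 mM H2O2 or added glucose. The 5 histidine-limited courses, at 30 °C with 2 mg/l histidine, received 6 mM DTT, heat shock (37 °C for 5 h), 0.31 M NaCl, 10 µM clotrimazole or added histidine, and the labels give BY4741 for them where the methods name a W303 strain with bar1 deleted. Values after the onset are given as the change from the steady state of the course. On 5 arrays of log-phase cells, growth in glycerol (Cy5) was set against growth in glucose (Cy3) in cells labelled adh1 (BY4741 deleted for the alcohol dehydrogenase gene ADH1, 3 arrays) and in wild-type cells (BY4741, 2 arrays). A further 7 arrays followed adh1 cells moved to glycerol (4 arrays) or to glucose (3 arrays) against the culture they came from.

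The dye orientation was the same on all arrays. Strain, medium and batch culture all change with the limiting nutrient and cannot be told apart. Of 3420 member values, 21 were missing and 15 were exactly 0, the zeros lying in 7 members. In the 3 histidine-limited courses with a pair of steady state arrays, the members differed between the arrays of a pair by a median absolute log2 difference of 0.136 to 0.141, against 0.110 to 0.144 over all ORFs. Medians over all ORFs stayed between -0.03 and 0.03 on every array after the onset. The labels do not say that courses or arrays came from separate inocula, so p-values measure the spread between these samples, which may be technical. On PCR-product arrays, close relatives such as CLB1 and CLB2 may cross-hybridize, and strands are not told apart.

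The first comparison asked how the genes changed right after the onset of stress, over the first array of 7 stress courses (0.23 to 0.33 h). The G2-M genes fell or did not pass the test, and none rose. By limma with Benjamini-Hochberg adjustment over all ORFs, 7 of 36 members (19.4%) were lower and 0 were higher, against 14.8% of all ORFs called, 8.37% lower and 6.47% higher. The median change of the members was -0.17 on the log2 scale, with 28 of 36 below 0, against a median of 0.01 over all ORFs. Because whole cultures were measured, fewer cells in G2 and mitosis and less RNA per cell cannot be told apart.

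Among the mitotic cyclins and exit regulators, 2 of 7 fell. CLB1, a B-type cyclin that activates the kinase Cdc28 for mitosis, changed by -1.35 in the lowest course, -0.63 in the middle one and -0.29 in the highest. All 7 courses lay below 0, lowest in histidine-limited NaCl and DTT. Its mean change was -0.76 ± 0.39 (SD, n = 7 courses; limma adjusted p = 0.0235). CDC5, the polo kinase of mitosis, ran from -1.96 in glucose-limited H2O2 over a middle value of -0.54 to -0.17 in glucose-limited NaCl. It fell by 0.72 on average (SD 0.58, n = 7; limma adjusted p = 0.038), and the other 6 courses lay between -0.72 and -0.17. CLB2, the main mitotic cyclin, ran from -1.38 in histidine-limited DTT over -0.30 to 0.26 in glucose-limited NaCl. Its mean of -0.38 ± 0.52 (SD, n = 7) did not pass (adjusted p = 0.174), and 6 of 7 courses lay below 0. CDC20, an activator of the anaphase-promoting complex, lay below 0 in all 7 courses, between -0.81 and -0.12, and its mean of -0.34 did not pass (limma adjusted p = 0.0748). DBF2, a kinase of the mitotic exit network, had a mean of 0.22, and its partner MOB1 had a mean of -0.12; neither passed.

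Among the transcription and chromatin regulators, 1 of 4 fell. SWI5, which turns on genes at the M-to-G1 passage, ran from -1.07 in glucose-limited H2O2 over -0.41 to -0.01 in glucose-limited heat shock. All 7 courses lay below 0 and the mean was -0.48 ± 0.35 (SD, n = 7; limma adjusted p = 0.0465), the member just inside the threshold. FKH2 averaged -0.20, and HST3, a histone deacetylase, averaged -0.40; neither passed.

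Of the 8 genes of cytokinesis, bud sites and cytoskeleton, only BUD4, needed for axial budding, fell. It ran from -0.72 in histidine-limited DTT over -0.57 to 0.03 in glucose-limited heat shock, the 1 course above 0, and averaged -0.45 ± 0.27 (SD, n = 7; limma adjusted p = 0.038). The other 7 had means between -0.36 (HOF1, an F-BAR protein of cytokinesis) and 0.07 (CHS2, the chitin synthase of the primary septum). None of the 3 genes of organelle inheritance and RNA localisation passed, with means of 0.10 for MMR1, the adaptor for mitochondrial inheritance, and -0.06 for SHE2, which carries ASH1 mRNA to the bud. VAC17, the vacuole adaptor for the myosin motor, was the member just outside the threshold, with all 7 courses below 0 and a mean of -0.55 (limma adjusted p = 0.0632).

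Of the 6 genes of plasma membrane, wall and lipids, 1 fell. PMA1, the proton pump of the plasma membrane, ran from -1.90 in glucose-limited NaCl over -0.74 to -0.10 in glucose-limited DTT. All 7 courses lay below 0, with a mean of -0.82 ± 0.57 (SD, n = 7; limma adjusted p = 0.0276). AUR1, the inositol phosphorylceramide synthase, reached -2.48 in glucose-limited NaCl and -1.27 in histidine-limited NaCl, but its mean of -0.72 had an SD of 0.93 and did not pass (adjusted p = 0.122). PMP1, a small proteolipid bound to the pump, averaged -0.06, and SUR7, WSC4 and IST2 had means between -0.13 and 0.08. Of the 8 remaining genes, AIM20 and YGK1 fell, by 0.78 (SD 0.36, limma adjusted p = 0.0235) and by 0.72 (SD 0.53, limma adjusted p = 0.0329), both below 0 in all 7 courses. AIM20 lay between -1.07 and -0.14, and YGK1 between -1.78 and -0.21. The other 6 had means between -0.42 (YML119W) and 0.43 (SRC1, a protein of the inner nuclear membrane) and did not pass.

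**Figure D1:**
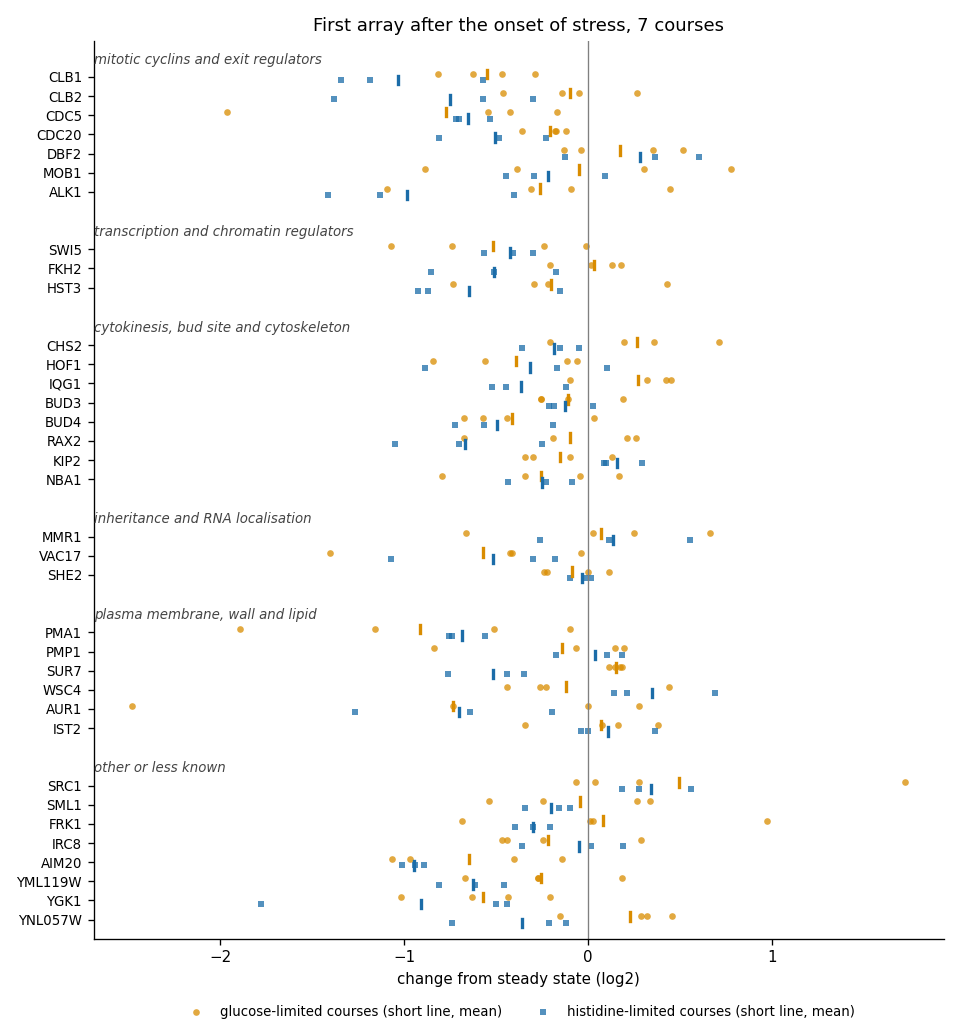
Change from steady state on the first array after the onset of stress (x axis, log2) for 35 of the 36 G2-M genes, grouped by role on the y axis; each point is 1 course and short lines are means of the glucose-limited (circles, 4 courses) and histidine-limited (squares, 3 courses) cultures. Points of CLB1, PMA1, AIM20, YGK1, SWI5 and CDC5 all lie below 0.

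The 7 calls depended on which courses were in the fit. Without the glucose-limited heat shock, or without any 1 of the 3 histidine-limited courses, 0 members and 0 of all ORFs passed by limma, with 11 to 13 members and 25.9% to 28.0% of all ORFs at an unadjusted p under 0.05. A robust fit with a trend also gave 0 calls, with 14 members and 34.5% of all ORFs at an unadjusted p under 0.05, while leaving the steady state unsubtracted gave 2 calls (135 of all 6132 ORFs). The medians over all 36 members were less sensitive, at -0.26 to -0.12 with 1 course left out. The histidine-limited DTT course had no steady state array of its own, and its baseline was the mean of the other 4 histidine-limited courses.

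Neighbouring lists moved as follows on the same arrays. Of 29 other mitotic regulators, none of them among the 36 genes, 1 fell and 0 rose, with a median of -0.16. This list includes FKH1, which stands in the G2-M module and also in the G1 module. Of 43 M-G1 genes 7 fell (median -0.25). Of 219 G1 genes 20 fell and 1 rose (median -0.14). Over all ORFs, 8.37% were called lower and 6.47% higher in this comparison. Changes were wider in the modules of the general stress response: 103 of 190 stress genes rose (median 0.81) and 173 of 227 ribosomal biogenesis genes fell (median -0.88). The part of these changes in those of the G2-M genes was not tested.

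By course, the member medians on the first array lay between -0.40 in histidine-limited DTT, where 30 of 36 genes were below 0, and -0.00 in glucose-limited heat shock, where 18 were. Glucose-limited H2O2 had a median of -0.35 and histidine-limited NaCl one of -0.33. Glucose-limited NaCl had a median of -0.08, although it held some of the lowest single values.

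At 1 to 3.1 h no member passed the test, and neither did any other ORF (0 called, 0.00% of all ORFs; lowest limma adjusted p of a member 0.292). At an unadjusted p under 0.05, 13 members passed, 12 of them lower, against 13.6% of all ORFs. The median of the members was -0.25, with 29 of 36 below 0. The lowest mean changes were -0.71 for YGK1, -0.70 for ALK1 (a haspin-like kinase), -0.67 for HOF1 and -0.65 for AIM20. DBF2 stood at the other end with a mean of 0.43. In both DTT courses 32 of 36 members lay below 0 in this window, with medians of -0.47 in the glucose-limited and -0.42 in the histidine-limited culture. The change between the first array and this window also gave 0 calls (0.00% of all ORFs by limma; 3 members and 17.7% of all ORFs at an unadjusted p under 0.05), with a member median of -0.07.

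At 6 to 12 h the member median was -0.02 and 19 of 36 genes lay below 0. Again 0 members passed (0.00% of all ORFs by limma), with 9 at an unadjusted p under 0.05, against 15.3% of all ORFs. HOF1, CDC20 and HST3 lay below 0 in all 7 courses, with means of -0.39 for HOF1 and -0.32 for CDC20. RAX2, a landmark protein of bipolar budding, stood at 1.57, 1.29, 0.79 and 0.64 in the glucose-limited DTT, heat shock, NaCl and H2O2 courses, against -0.31, 0.09 and -0.06 in the histidine-limited DTT, heat shock and NaCl courses. The ranges did not overlap, and the difference was not tested. CHS2 showed the same order, at 0.23 to 0.93 in glucose-limited and -0.04 to 0.10 in histidine-limited cultures. RAX2 and CHS2 averaged -0.30 and -0.21 at the glucose-limited steady state that was subtracted; its part was not tested. With the ratio to the batch culture in place of the change from steady state, 7 of 36 members passed in this window, 5 higher and 2 lower, against 10.3% of all ORFs, 5.19% higher and 5.10% lower.

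**Figure D2:**
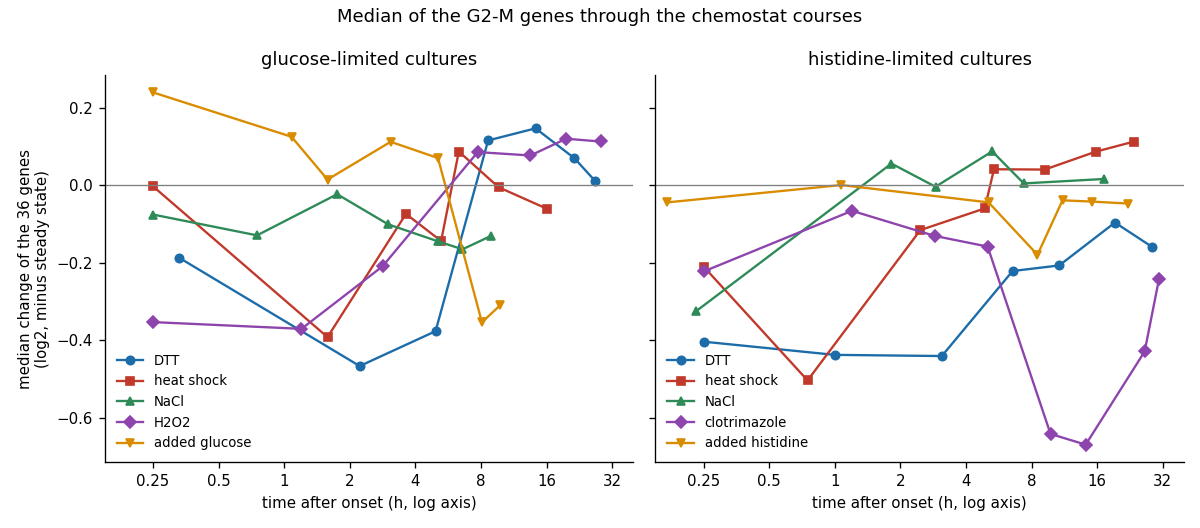
Median change of the 36 G2-M genes (y axis, log2, minus steady state) on each array against time after onset (x axis, h, log scale), with 1 line per course, glucose-limited cultures left and histidine-limited cultures right. The lowest points are those of clotrimazole at 9.78 h (-0.64) and 14.18 h (-0.67), and the highest is the added glucose at 0.25 h (0.24).

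The plot of course medians sets all 10 courses side by side. On 48 of 71 arrays after the onset the member median was below 0, on 21 arrays it was below -0.2 and on 1 array it was above 0.2, whereas 46.6% to 53.3% of all ORFs lay below 0 on any 1 array. CDC20 lay below 0 on 66 of 71 arrays, HST3 on 62, CLB1 and ALK1 on 58 each. RAX2 and PMP1 lay below 0 on 25 arrays each. Values of AUR1 ranged most widely, between -2.48 and 1.79, and those of BUD3, needed for axial budding, least, between -0.44 and 0.36. These counts describe single arrays, and the arrays of a course share the steady state that was subtracted. No test was made on the counts.

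After DTT, which reduces disulfide bonds, most members lay below 0 over several arrays in both limitations. At 2.22 h in the glucose-limited culture, 32 of 36 genes lay below 0 (median -0.47), led by AIM20 at -1.55, CDC5 at -1.54 and HOF1 at -1.43, with DBF2 at 0.85. At 3.1 h in the histidine-limited culture, 32 of 36 also lay below 0 (median -0.44), led by CLB2 at -1.69, YGK1 at -1.58 and YNL057W at -1.39, with SRC1 at 0.87. By 8.63 h the glucose-limited median was 0.12, while the histidine-limited one was -0.22 at 6.55 h.

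Under heat shock the median was lowest after the first array. It reached -0.39 at 1.58 h in the glucose-limited culture (26 of 36 below 0), with PMA1 at -1.06, CDC20 at -1.01 and HOF1 at -0.89. In the histidine-limited culture it reached -0.50 at 0.75 h (32 of 36 below 0), with AIM20 at -1.15, ALK1 at -0.97 and YNL057W at -0.92. The last array in the heat and the first after the return to the lower temperature were then compared. They were taken at 3.62 and 5.25 h in the glucose-limited culture and at 4.88 and 5.38 h in the histidine-limited one. The intervals are unlike, and much of the glucose-limited one still lay in the heat. The median change of the members was -0.07 in the glucose-limited culture and 0.04 in the histidine-limited one. BUD4 had the largest increase in the histidine-limited culture, 0.65, and moved by -0.08 in the glucose-limited one.

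NaCl gave opposite extremes among the members. At 0.25 h in the glucose-limited culture AUR1 stood at -2.48, PMA1 at -1.90 and VAC17 at -1.40, while SRC1 stood at 1.72. These were the lowest values of AUR1 and VAC17 and the highest of SRC1 over the 71 arrays. In the histidine-limited culture CLB1 (-1.35), AUR1 (-1.27) and ALK1 (-1.13) were lowest at 0.23 h, and at 1.82 h the median was 0.06 with CLB2 at 0.71. DBF2 reached its highest value, 1.78, at 8.93 h in the glucose-limited NaCl course.

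H2O2 was given in glucose limitation. CDC5 was lowest on its first array, at -1.96, and stood at -1.47 at 1.2 h, -1.02 at 2.83 h and -0.29 at 7.73 h. At 1.2 h, where the median was -0.37, YML119W stood at -1.78, ALK1 at -1.76 and AIM20 at -1.49. At 13.5 h RAX2 and CHS2 had their highest values of the 71 arrays, 1.61 and 1.56.

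Added glucose moved AUR1, PMA1, PMP1 and IST2 the other way from glucose-limited NaCl at 0.25 h. Of the other membrane, wall and lipid genes, SUR7 lay above 0 and WSC4 below 0 on both arrays. At 0.25 h after added glucose AUR1 stood at 1.79 and PMA1 at 1.76. VAC17, an inheritance gene, stood at 1.46. These were their highest values of the 71 arrays, and SRC1 stood at -0.87. The median of the 6 membrane, wall and lipid genes was 0.80 on this array, against -0.17 for the 7 cyclins and exit regulators. At 8.08 h the median of all 36 was -0.35, with all 7 cyclins and exit regulators below 0 and CDC5 at -1.86, CLB1 at -1.38 and PMA1 at -1.11. AUR1 (0.67), CHS2 (0.54) and RAX2 (0.53) were highest there. After added histidine the median was lowest at 8.52 h, at -0.18, with CLB2 at -0.56, SWI5 at -0.48 and CDC5 at -0.45. SHE2 (0.54), DBF2 (0.43) and WSC4 (0.35) stood at the other end.

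Clotrimazole, an inhibitor of ergosterol synthesis, gave the lowest medians of all courses, and gave them late. The median lay between -0.22 and -0.07 up to 5.03 h, reached -0.64 at 9.78 h and -0.67 at 14.18 h (33 and 34 of 36 genes below 0), and returned to -0.24 at 30.8 h. At 9.78 h PMA1 stood at -2.38, its lowest value of the 71 chemostat arrays after an onset. At 14.18 h CLB1 was lowest at -1.78, followed by HST3 at -1.63 and CLB2 at -1.57, and WSC4, of the family of wall stress sensors, was highest at 0.18, before FRK1 at 0.10 and AUR1 at -0.04. By role, the 4 transcription and chromatin regulators had a median of -1.13 at 14.18 h, the 7 cyclins and exit regulators -0.78 and the 6 membrane genes -0.31. The 29 other mitotic regulators had a median of -0.23 at 14.18 h. This course has no replicate, so none of these values was tested.

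**Figure D3:**
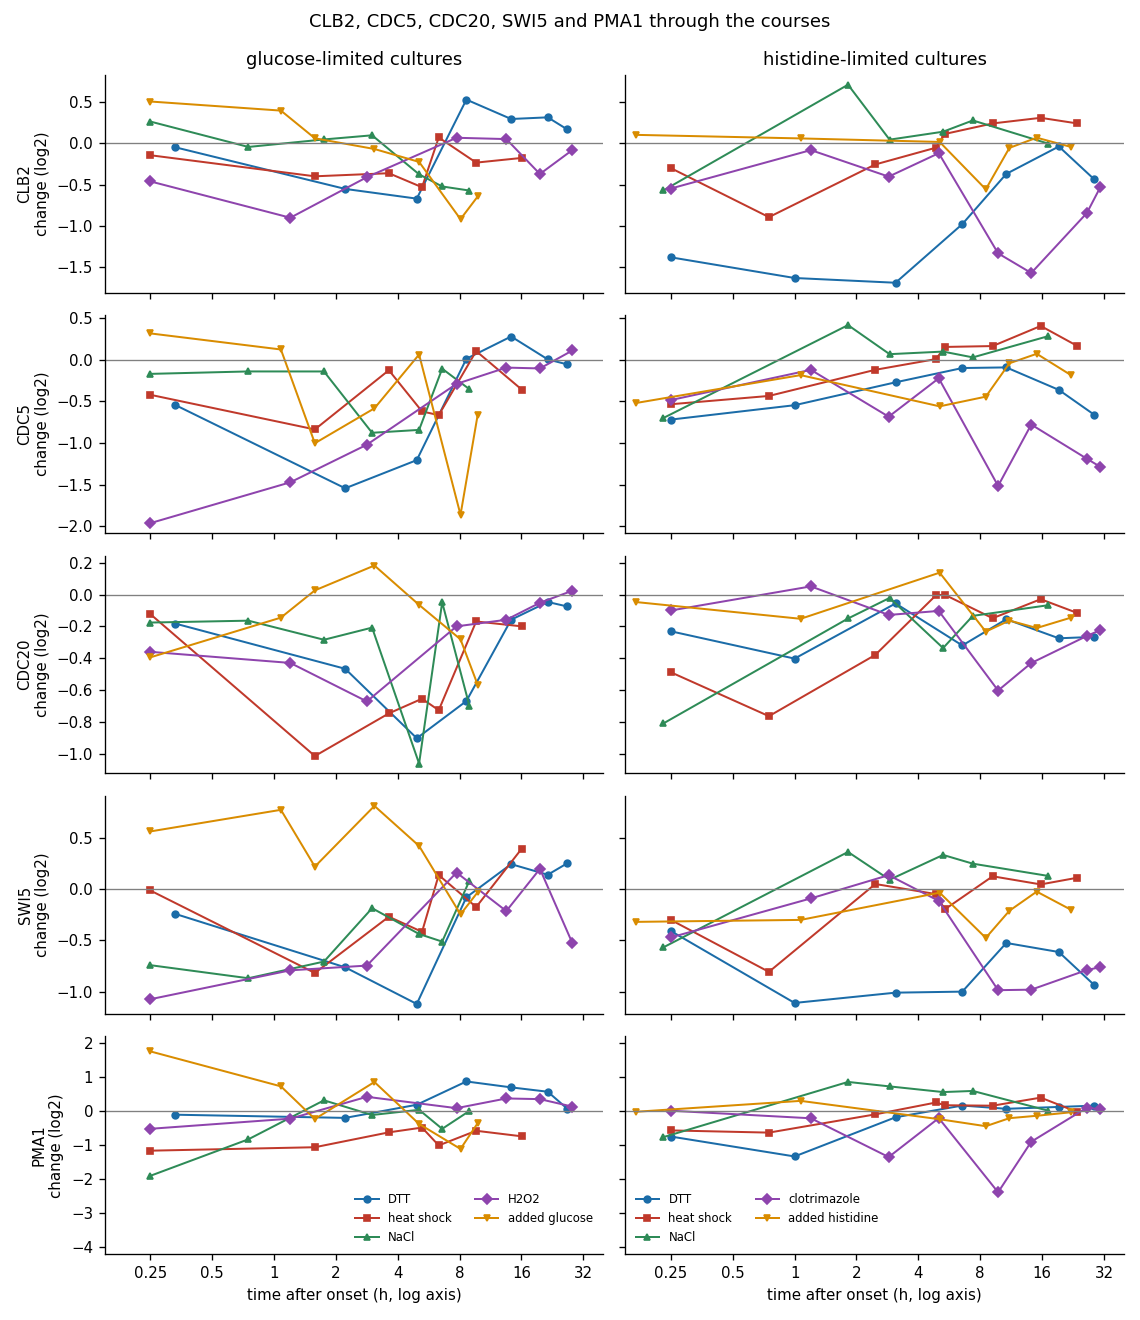
Change from steady state (y axis, log2; the scale differs between genes) of CLB2, CDC5, CDC20, SWI5 and PMA1 against time after onset (x axis, h, log scale), with 1 line per course, glucose-limited cultures left and histidine-limited cultures right. CLB2 is lowest in histidine-limited DTT (-1.69 at 3.1 h) and clotrimazole (-1.57 at 14.18 h), CDC5 in glucose-limited H2O2 (-1.96) and added glucose (-1.86 at 8.08 h), and PMA1 runs from -2.38 to 1.76.

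The early response of the 3 stresses given in both limitations was compared between glucose-limited and histidine-limited cultures, with the stress as a block; the heat and NaCl doses differed between them and cannot be told apart from the limitation. The difference (glucose-limited minus histidine-limited) had a median of 0.31 over the members, and 25 of 36 lay above 0. No member passed (0 called, 0.00% of all ORFs by limma; 4 members at an unadjusted p under 0.05, against 8.58% of all ORFs; lowest limma adjusted p of a member 0.479). ALK1 stood at -0.31, -0.09 and 0.45 in glucose-limited DTT, heat shock and NaCl, against -1.42, -0.41 and -1.13 in the same histidine-limited stresses, a difference of 1.00 without overlap. CLB2 followed with a difference of 0.78, from means of 0.02 in glucose-limited and -0.75 in histidine-limited cultures. SUR7, a protein of eisosomes in the plasma membrane, had means of 0.14 in glucose-limited and -0.52 in histidine-limited cultures. On simulated data this comparison recovered 50.5% of the changed ORFs. The changes planted there were doublings or larger, and recovery of smaller ones was not simulated.

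The steady states were then set against the batch cultures, which asks how growth in the chemostat changed the genes before any perturbation. In glucose limitation 5 of 36 members were higher and 4 lower, against 28.7% of all ORFs called, 13.9% higher and 14.8% lower. The member median was -0.01. WSC4 averaged 0.40 ± 0.29 (limma adjusted p = 0.0105), YGK1 0.39 ± 0.16 (adjusted p = 0.00321), ALK1 0.34 ± 0.08 (adjusted p = 0.0128) and IST2, a tether between endoplasmic reticulum and plasma membrane, 0.24 ± 0.17 (adjusted p = 0.0291; SD, n = 5 courses). On the lower side were YNL057W (-0.55, adjusted p = 0.00111), PMA1 (-0.35, adjusted p = 0.0254), its proteolipid PMP1 (-0.34, adjusted p = 0.0021) and RAX2 (-0.30, adjusted p = 0.0159), each below 0 in all 5 courses. The spread of the batch culture itself is not in this test.

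In histidine limitation 17 members were higher and 3 lower, 55.6% of the members, against 34.7% of all ORFs called, 18.2% higher and 16.5% lower. The member median was 0.23 and 27 of 36 genes lay above 0. IRC8 (0.80), VAC17 (0.62), NBA1 of the bud neck (0.60), MOB1 (0.59) and SRC1 (0.59) had the highest means, each above 0 in all 4 courses, and WSC4 (-0.99), YGK1 (-0.45) and CLB1 (-0.45) were the 3 below. By role, the higher calls were 3 of 7 cyclins and exit regulators, 2 of 4 transcription and chromatin regulators, 3 of 8 cytokinesis genes, 2 of 3 inheritance genes, 2 of 6 membrane genes and 5 of the 8 other or less known genes. Without the clotrimazole course, or without the added histidine course, 12 members passed, 9 higher and 3 lower, against 25.9% of all ORFs without the clotrimazole and 24.3% without the added histidine course. CDC5, CLB2 and SUR7, all called higher, spread widely among courses, CDC5 from -0.05 to 1.21. The markers of haploid a cells had medians of -0.42 to 0.35 at the glucose-limited and of -1.96 to -1.16 at the histidine-limited steady states; their part was not tested.

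The steady states of the 2 limitations differed in 17 of 36 members (47.2%), 3 higher and 14 lower in glucose limitation, against 35.0% of all ORFs, 16.3% higher and 18.7% lower. In 13 of the 17 the groups did not overlap, and of all 36 members, called or not, 15 lacked overlap. The same share over all ORFs was not counted. WSC4 differed most: its ratios were 0.44, 0.18, 0.89, 0.19 and 0.29 in the glucose-limited courses, against -0.86, -0.94, -1.03 and -1.13 in the histidine-limited ones. All glucose-limited courses lay above 0 and all histidine-limited ones below, a difference of 1.39 (SE 0.15, limma adjusted p = 5.82e-05). YGK1 showed the same order, at 0.20 to 0.63 in glucose-limited and -0.66 to -0.29 in histidine-limited courses, a difference of 0.84 (adjusted p = 0.000296). CLB1 was the third member higher in glucose limitation, with ratios of 0.10, 0.03, -0.22, -0.10 and 0.16 there, against -0.53, -0.28, -0.57 and -0.41 in histidine limitation (difference 0.44, SE 0.11, limma adjusted p = 0.0102).

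On the lower side, IRC8 stood at 0.22, -0.19, 0.24, -0.47 and -0.08 in the glucose-limited courses, against 0.43, 0.84, 1.02 and 0.92 in the histidine-limited ones. The groups did not overlap, and the difference was -0.86 (SE 0.17, limma adjusted p = 0.00253). SRC1 (-0.75), VAC17 (-0.70), NBA1 (-0.64) and RAX2 (-0.53) followed, none of them with overlap. SWI5 was lower by the same test, with means of -0.02 in glucose-limited and 0.40 in histidine-limited courses (difference -0.42, adjusted p = 0.0156). CLB2, with means of -0.01 in glucose-limited and 0.44 in histidine-limited courses, missed the threshold (difference -0.45, adjusted p = 0.0501), and its estimate had the opposite sign to that of CLB1. Without the histidine-limited clotrimazole course, 11 members passed, against 27.1% of all ORFs. Of the 29 other mitotic regulators 2 were higher and 2 lower, whereas 150 of 227 ribosomal biogenesis genes were lower and 3 higher in glucose limitation. Over all ORFs, 16.3% were higher and 18.7% lower.

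**Figure D4:**
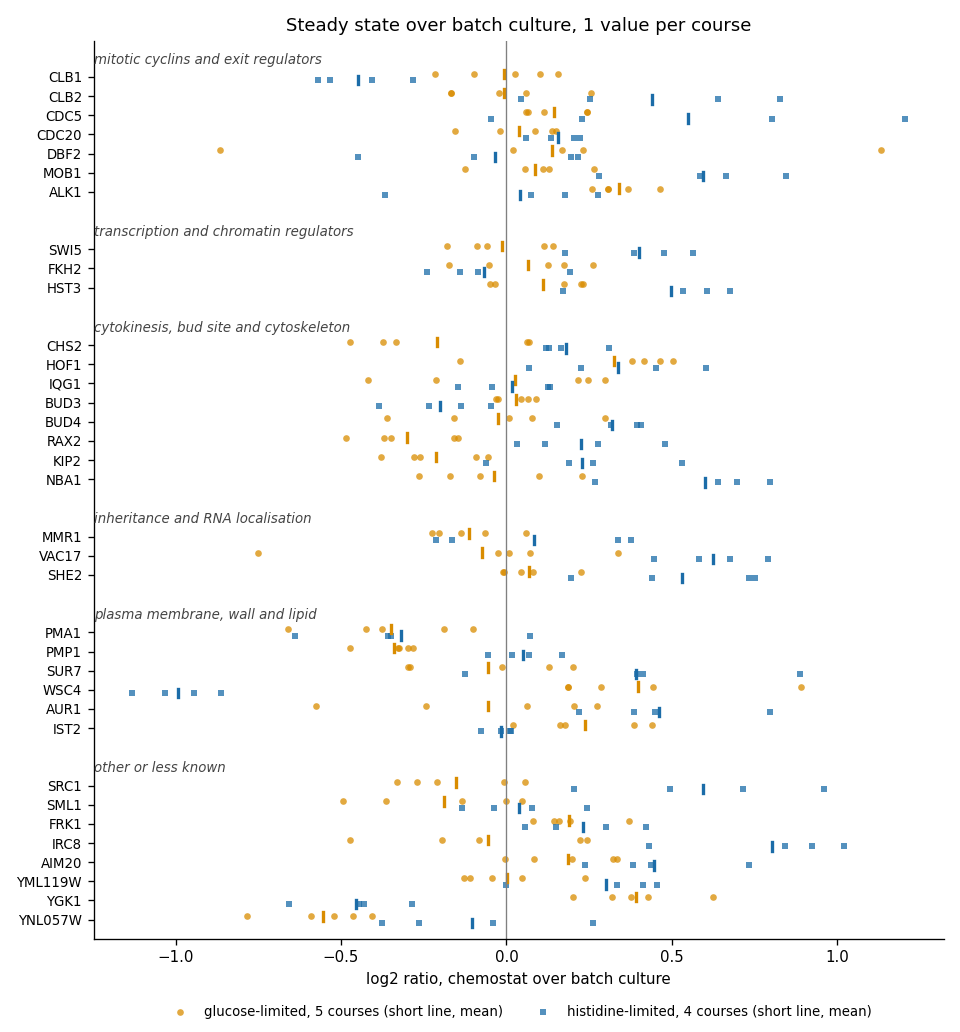
Steady state over batch culture (x axis, log2 ratio) for 35 of the 36 G2-M genes, grouped by role on the y axis; each point is 1 course and short lines are means of the glucose-limited (circles, 5 courses) and histidine-limited (squares, 4 courses) cultures. WSC4, YGK1 and CLB1 lie higher in the glucose-limited courses, and IRC8, SRC1, VAC17, NBA1 and RAX2 lie higher in the histidine-limited ones, without overlap.

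Before the log-phase comparison, a property of its arrays has to be given. Both channels of the adh1 arrays are labelled with the same strain, of mating type a, yet the 4 markers of alpha cells had medians of -4.91, -4.50 and -4.30 in glycerol over glucose on the 3 adh1 arrays, against -0.19 and -0.23 on the 2 wild-type arrays, where MF(ALPHA)1 had no value. STE3, the receptor of alpha cells, stood at -3.56, -3.46 and -3.45 on the adh1 arrays, against 0.23 and 0.34 on the wild-type arrays. The 6 markers of a cells had medians of -2.05, -1.75 and -1.19 on the adh1 arrays and of -1.17 and -1.28 on the wild-type arrays. If both channels hold the same genotype, as labelled, the ADH1 ratio does not check the labels. The part of this in the values below was not tested, and the arrays are called adh1 as labelled. DBF2, ALK1, FKH2, HOF1, IQG1 and YNL057W lacked a value on some array, which left 30 members.

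In adh1 cells, 10 of 30 members were higher and 9 lower in glycerol than in glucose (63.3%), and in wild-type cells 4 were higher and 12 lower (53.3%). Over all ORFs 63.1% were called in adh1 cells (29.1% higher, 34.0% lower) and 60.7% in wild-type cells (27.7% higher, 33.0% lower). The member median was 0.00 in adh1 cells and -0.22 in wild-type cells, against -0.04 and -0.05 over all ORFs. Leaving out adh1 replicate 1 or 2 gave 12 calls in adh1 cells, against 49.5% of all ORFs without replicate 1 and 45.6% without replicate 2.

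Several genes fell in both strains. IRC8 lay between -1.14 and -0.89 on the 3 adh1 arrays, against -0.98 and -0.81 on the wild-type arrays (limma adjusted p = 9.73e-05 in adh1 cells and 0.000402 in wild-type cells). PMA1 stood at -1.04, -0.93 and -1.24 on the adh1 arrays, against -1.33 and -0.54 on the wild-type arrays (limma adjusted p = 0.000864 in adh1 cells and 0.00415 in wild-type cells). Both genes overlapped between strains. PMP1 fell with the pump, by means of 0.64 in adh1 cells and 0.55 in wild-type cells. SML1, which inhibits ribonucleotide reductase, fell furthest in wild-type cells, with ratios of -0.86, -0.86 and -0.95 on the adh1 arrays, against -1.32 and -1.40 on the wild-type arrays (limma adjusted p = 8.66e-05 in adh1 cells and 4.8e-05 in wild-type cells). RAX2 fell in adh1 cells (-0.83, adjusted p = 0.000612), and its mean of -0.34 in wild-type cells did not pass.

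BUD4 rose in both, by 0.55 in adh1 cells (limma adjusted p = 0.00566) and by 0.53 in wild-type cells (adjusted p = 0.0165). In adh1 cells HST3 (0.73), MOB1 (0.56), YGK1 (0.55) and NBA1 (0.50) also rose. In wild-type cells the other 3 increases were those of KIP2, a kinesin (0.63), SRC1 (0.47) and WSC4 (0.38), all of which rose in adh1 cells too, by 0.38, 0.20 and 0.32.

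The strain difference (adh1 minus wild type) was positive for all 7 members that passed, 23.3% of 30, against 25.6% of all ORFs called, 13.8% higher and 11.8% lower. None of the 7 overlapped between strains, and of all 30 members, called or not, 17 lacked overlap. The same share over all ORFs was not counted. SUR7 stood at 0.34, 0.16 and 0.21 on the adh1 arrays, against -0.89 and -0.69 on the wild-type arrays. It lay above 0 in adh1 cells and below 0 in wild-type cells, a difference of 1.03 (SE 0.13, limma adjusted p = 0.00296). AIM20 stood at 0.18, 0.05 and 0.31 on the adh1 arrays, against -0.83 and -0.58 on the wild-type arrays, with the same split (difference 0.88, adjusted p = 0.00661). SWI5 stood at 0.37, 0.29 and 0.18 on the adh1 arrays, against -0.60 and -0.12 on the wild-type arrays (difference 0.64, adjusted p = 0.0327). NBA1 (0.61, adjusted p = 0.0156), HST3 (0.59, adjusted p = 0.0275), SML1 (0.47, adjusted p = 0.0267) and MMR1 (0.41, adjusted p = 0.0479), completed the set.

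CLB2 and CDC20 fell in wild-type cells, by 0.48 (limma adjusted p = 0.00779) and 0.26 (adjusted p = 0.0394), and their strain differences did not pass. Of 39 measured M-G1 genes, 15 were higher in the strain difference and 1 was lower, against 13.8% of all ORFs higher and 11.8% lower. The count of 7 rested on few arrays: it was 2 without adh1 replicate 1, 3 without adh1 replicate 2 or 3 and 4 without wild-type replicate 1, where 13.0% to 22.2% of all ORFs passed.

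**Figure D5:**
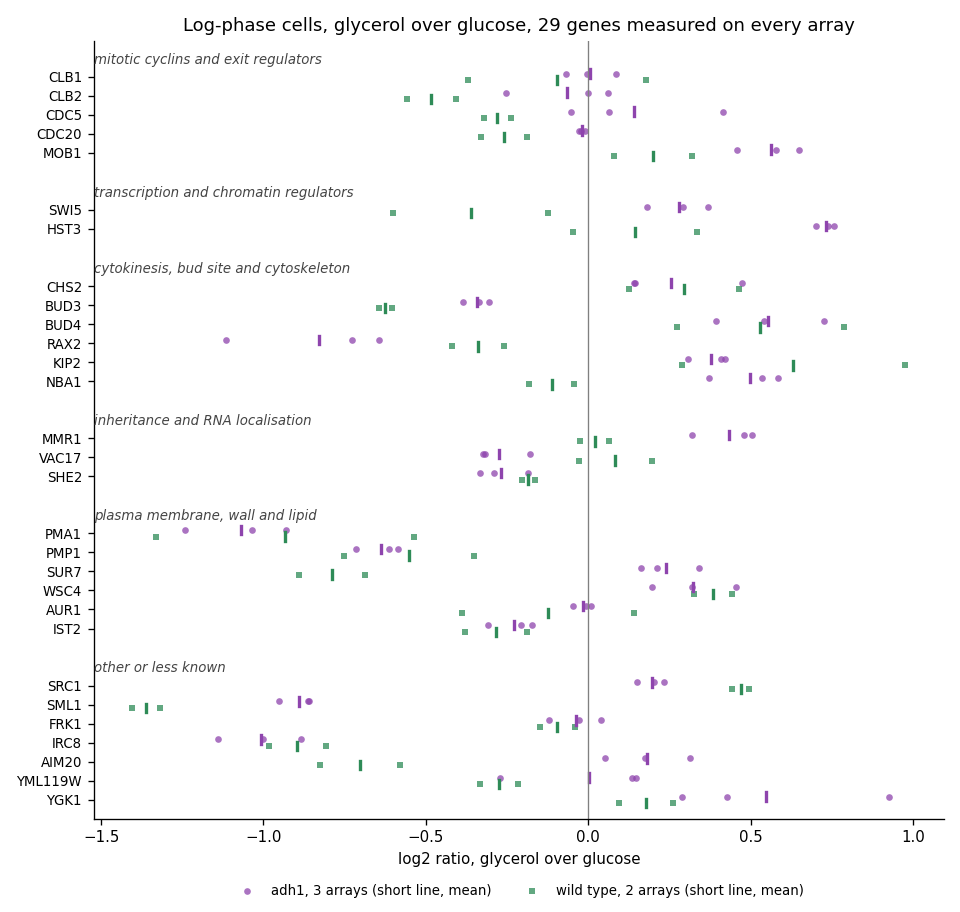
Glycerol over glucose in log-phase cells (x axis, log2 ratio) for 29 of the 30 G2-M genes measured on every array, grouped by role on the y axis; each point is 1 array and short lines are means of adh1 (circles, 3 arrays) and wild-type cells (squares, 2 arrays). SUR7, AIM20 and SWI5 lie above 0 in adh1 cells and below 0 in wild-type cells, and IRC8, PMA1 and SML1 lie below 0 in both.

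The transfer arrays have no replicates, so their values were not tested. After the move of adh1 cells to glycerol, the median of the members with a value was -0.42 at 0.5 h, -0.26 at 1 h, -0.31 at 2 h and 0.04 at 4 h. PMA1 stood at -2.50, -2.44, -1.69 and -0.52 at these times, the lowest member at 0.5 h and 1 h. SUR7 stood at -1.21, -1.22, -2.16 and -1.15, and was the lowest at 2 h. DBF2 was at -1.37 at 0.5 h, while MMR1 (1.89) and SWI5 (1.70) were highest at 4 h. CDC5 is listed at 0 at 0.5, 1 and 2 h, which may be filled-in values.

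After the move to glucose the medians stayed near 0, at -0.01, -0.04 and 0.04 at 0.5, 2 and 4 h, but single genes did not. PMA1 stood at 0.86, 1.00 and 0.90, PMP1 at 1.59, 1.53 and 1.32, and SRC1 at 1.74, 1.68 and 0.70. The pump and its proteolipid were thus above 0 at every time in glucose, and PMA1 was below 0 at every time in glycerol. SUR7 was low after both moves, at -1.33, -1.23 and -1.07 in glucose.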

How the data were processed

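The values the authors deposited are normalized log2 ratios, Cy5 over Cy3, of 6132 ORFs on 95 arrays. Per the study's methods, cDNA was labelled by the indirect amino-allyl method and hybridized to cDNA arrays of yeast ORFs. The ratios were then corrected for technical biases and normalized. Precision is limited by how many arrays there are, as spot intensities are not used here. The dyes were not swapped. The ratios were taken as deposited. For each chemostat course, the mean of its steady state arrays was subtracted. The histidine-limited DTT course has no steady state array in the samples used here, and the mean of the other 4 histidine-limited courses served in its place.

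Every test was made with limma 3.58.1 in R 4.3.3 (empirical Bayes moderation, 2-sided), on 1 value per course or log-phase array, over all ORFs with Benjamini-Hochberg adjustment at a threshold of 0.05. In 11 comparisons, up to 5 called increases and 5 called decreases with 1 sign throughout were named, and CLB2, SWI5, CDC5, CDC20 and PMA1 were followed in every course. In courses without a test, the 3 lowest and 3 highest genes were named at the array with the largest absolute median. Other genes named by their values were chosen after those values were seen. For 1 member, values of its own are not reported here, and it is left out of the plots by gene, although counts and medians over the members include it. The members and the gene lists were chosen with earlier results of these data known. Symbols came from the R64 RefSeq table, which held 35 of the 36 genes. On simulated data with 200 changed ORFs, the fit of the early response recovered 96% of them. The planted changes were doublings or larger, whereas the mean early changes of the members lay between -0.82 and 0.43. Recovery of changes of that size was not simulated. Alternatives were arrays centred on their medians, exact zeros as missing, robust moderation with a trend, other baselines, no block for the stress, ORFs with fewer values, a replicate block, the whole module and leaving out each course or array. Python 3.11.15, numpy 2.4.6, pandas 2.3.3, scipy 1.17.1 and matplotlib 3.10.9 were used for the rest.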

Additional observations from a re-analysis of the deposited data

Results flagged for a closer look

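In 54 groups of 4 to 10 values, 3 held a sample far from the others, where chance gives about 1 in 20. CDC5 on the first array stood at -1.96 in glucose-limited H2O2, with the other 6 courses between -0.72 and -0.17. The change of CLB2 between the first array and 1 to 3.1 h was 0.95 in histidine-limited NaCl, with the others between -0.51 and 0.04. PMP1 at the glucose-limited steady state was -0.47 in the heat shock course, with the others between -0.33 and -0.28.

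Differences between groups by limma were seen between the steady states of the 2 limitations (glucose-limited minus histidine-limited) for WSC4 (1.39), YGK1 (0.84), CLB1 (0.44), RAX2 (-0.53), NBA1 (-0.64), VAC17 (-0.70), SRC1 (-0.75) and IRC8 (-0.86). Between adh1 and wild-type cells the response to glycerol differed for SUR7 (1.03), AIM20 (0.88), SWI5 (0.64), NBA1 (0.61) and HST3 (0.59).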

How the results depend on the processing

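Of 135 counts of called members under alternatives, 113 stayed within 1.5 times of the count reported. These include comparisons in which 0 members passed in the full fit, where 0 against 0 counts as within the limit. Of 588 calls of named genes 535 were kept, 53 were lost and 0 changed sign, and causes were not tested. With all ORFs of the module, shared ones included, the calls were 16 of 56 early and 17 of 56 at the glucose-limited steady state. In log phase they were 34 of 49 in adh1 cells, 33 of 49 in wild-type cells and 22 of 49 for the strain difference. Over all ORFs, 14.8% were called early, 28.7% at the glucose-limited steady state and 25.6% for the strain difference. The shares were 63.1% in adh1 cells and 60.7% in wild-type cells. A robust fit with a trend gave 0 early calls (0 over all ORFs too). Against the batch culture without subtraction there were 2 early calls (135 of all 6132 ORFs) and 7 at 6 to 12 h (10.3% of all ORFs). Leaving out 1 course or array gave 0 to 6 calls early and 0 to 0 in the other comparisons after the onset. It gave 6 to 9 at the glucose-limited and 12 to 20 at the histidine-limited steady state, and 11 to 18 for their difference. In log phase it gave 12 to 21 in adh1 cells, 12 to 14 in wild-type cells and 2 to 5 for the strain difference. The full fits called 34.7% of all ORFs at the histidine-limited steady state and 35.0% for the difference between the limitations. Shares over all ORFs are given above for the reduced fits that changed a count most. Replicate numbers did not pair the log-phase arrays (correlations of deviations 0.05 and -0.00). With the replicate block the calls were 16 in adh1 cells and 12 in wild-type cells, where the share over all ORFs is not given. For the strain difference they were 3 (16.5% of all ORFs). Signal over background is unknown.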
